A study of Mus musculus with 9 samples.

Results

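The genes described here are targets of the Wnt pathway that mark hepatocytes around the central vein of the liver lobule: Glul, Slc1a2, Rhbg, Lgr5, Axin2, Tbx3, Rnf43, Znrf3 and Nkd1. They were taken by gene symbol from the array's platform annotation. Of these 9 genes, 6 matched a named transcript cluster (the array's unit of measurement, about 1 per gene), with 1 cluster each, out of 22206 clusters on the array. Array values of Glul, Rhbg and Rnf43 were not analysed here. The 6 measured genes are Slc1a2, Lgr5, Axin2, Znrf3, Nkd1 and Tbx3.

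The liver RNA came from male mice in 3 groups of 3, 1 array per mouse. Wild-type C57BL/6JHamSlc-+/+ mice and C57BL/6JHamSlc-ob/ob mice received vehicle, and a further group of ob/ob mice received an extract of Vigna umbellata, the rice bean, by oral gavage at 100 mg/kg, each for 42 days. All mice were obtained at 6 weeks of age, and all ate standard chow. The ob/ob mutation disrupts leptin, the fat-cell hormone that restrains feeding, in every cell of the animal, so the groups differ in body-wide physiology and not in the liver alone.

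Hepatocytes differ along the axis from the portal vessels, where blood enters the lobule, to the central vein, where it leaves. Endothelial cells at the central vein release Wnt ligands and R-spondin, which stabilise beta-catenin in the neighbouring hepatocytes and switch on the pericentral programme. That programme includes glutamine synthesis, which captures ammonia that has escaped the periportal urea cycle, as well as feedback inhibitors that limit the Wnt signal itself. Hepatocytes close to the central vein form a thin rim, so in whole-liver RNA fewer such cells and less RNA per cell cannot be told apart.

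None of the 6 genes passed the test in any comparison. The test was limma with p-values adjusted by Benjamini-Hochberg across the whole array, and a gene was called where the adjusted p was under 0.05. The design text used a looser criterion, p under 0.05 without adjustment together with a fold above 1.1. Between ob/ob vehicle and wild type 0 of 6 were called, against 2.96% of all clusters (2.28% higher, 0.68% lower). By the looser criterion 1 of 6 was counted, Slc1a2, with a lower level, against 17% of all clusters (10.3% higher, 6.72% lower). The median difference of the 6 genes was −0.09 log2, beside −0.06 over all clusters.

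Between extract and ob/ob vehicle limma called 0 of 6 and 0% of all clusters, although array weights gave 106 clusters and leaving out the arrays that stood apart, described next, gave 360. By the looser criterion 1 of 6 was counted, again Slc1a2, with a higher level, against 6.45% (3.56% higher, 2.9% lower). The groups overlapped for all 6 genes, while 13.6% of all clusters had no overlap. The median difference was −0.02, beside −0.01 over all clusters. Between extract and wild type limma called 0 of 6, against 1.29% (0.977% higher, 0.315% lower), and 0 of 6 met the looser criterion, against 14% (8.21% higher, 5.82% lower). Here too all 6 genes overlapped, against 21.7% of clusters without overlap, and the median was −0.14 beside −0.05.

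Some arrays stood apart, and several of these genes had their lowest or highest values there. Within groups the arrays correlated between 0.980 and 0.990 over all clusters, except that ob/ob vehicle 3 and wild-type vehicle 3 reached only 0.948 to 0.955 with the others of their group. Their interquartile ranges of 3.26 and 3.01 log2 were the smallest, those of the remaining arrays lying at 3.36 to 3.85. As a gauge of background, chosen with the values known, each array's 1091 clusters of olfactory receptor genes, which liver does not normally express, were used. The upper end of their middle 95% lay at 6.44 and 6.62 log2 on the arrays that stood apart and between 5.33 and 5.74 on the other arrays. It is called the olfactory limit below.

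**Figure D1:**
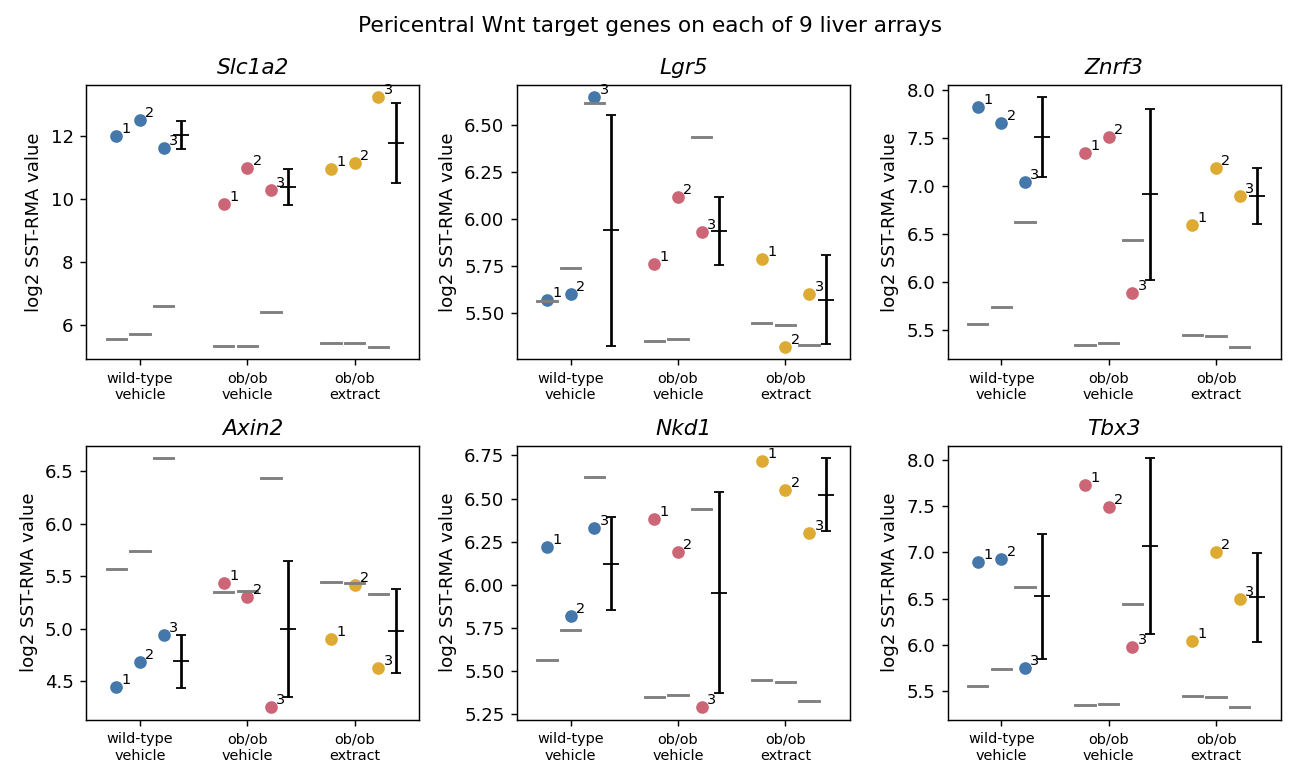
Log2 value of each measured gene (vertical axis) on each of the 9 arrays, by group (horizontal axis). Numbered points are mice, black bars the group mean ± SD (n = 3), and grey dashes each array's olfactory limit. Slc1a2 lies far above the dashes on every array, Axin2 lies above its dash only on ob/ob vehicle 1, and Znrf3, Nkd1 and Axin2 are each lowest on ob/ob vehicle 3.

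Slc1a2 encodes GLT-1, a transporter that takes up glutamate, the substrate that glutamine synthetase (Glul) joins to ammonia. It was the best measured of the 6 genes, above the olfactory limit on 9 of 9 arrays. Its promoter is shown because in both comparisons that involve ob/ob vehicle its difference was the largest of the 6 genes, beside that of Axin2, a widely used reporter of Wnt activity. The RefSeq-derived promoter table (GRCm38.p6) held 6 windows for 5 of the 9 genes: Slc1a2, Axin2, Nkd1, Glul and Rnf43. Glul and Rnf43 have no array values here, and Lgr5, Znrf3 and Tbx3 had no window. The 250 bases before the start of transcription were searched on both strands for CTTTGAA or CTTTGAT and also for CTTTGTA or CTTTGTT, forms of the site bound by TCF and LEF factors. At least 1 of these words occurred in 14.8% of 32851 windows in the table and in 1 of the 6 windows of those 5 genes. That window was the one of Slc1a2, which reads ATCAAAG, the reverse complement of CTTTGAT, from 207 to 201 bases before the start (in capitals). No word matched in the window of Axin2. A match is a description of letters and not a shown binding site. Both windows lie on the plus strand, at chr2:102706188-102706437 and chr11:108920099-108920348.
Slc1a2: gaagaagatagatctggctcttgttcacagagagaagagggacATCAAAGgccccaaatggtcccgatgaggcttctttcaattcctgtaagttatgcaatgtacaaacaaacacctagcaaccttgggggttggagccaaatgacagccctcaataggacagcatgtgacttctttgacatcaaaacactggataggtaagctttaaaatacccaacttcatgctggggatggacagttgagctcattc
Axin2: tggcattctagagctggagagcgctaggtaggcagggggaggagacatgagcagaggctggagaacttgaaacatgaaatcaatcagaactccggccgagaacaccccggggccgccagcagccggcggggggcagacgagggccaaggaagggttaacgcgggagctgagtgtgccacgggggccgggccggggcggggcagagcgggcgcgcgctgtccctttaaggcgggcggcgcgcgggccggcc

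In wild-type mice Slc1a2 stood at 11.99, 12.51 and 11.62 log2. In ob/ob vehicle mice it stood at 9.84, 10.99 and 10.30. All ob/ob vehicle values lay under all wild-type values. In this comparison 19.5% of all clusters had groups that did not overlap, counted over both directions. The group means were 12.04 ± 0.45 (SD, n = 3) and 10.38 ± 0.58, a difference of −1.66 log2 (SE 0.56, 95% interval −2.90 to −0.43, adjusted p = 0.152), or 0.316 of the wild-type level on the linear scale. The difference therefore met the looser criterion but was not called over all clusters. Across the alternatives it lay between −2.09 and −1.40, with adjusted p from 0.0523 (without extract 3) to 0.395 (without ob/ob vehicle 1).

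With the extract, Slc1a2 stood at 10.95, 11.15 and 13.22. Extract 3 had the highest value of all 9 arrays, while extract 1 lay under the highest ob/ob vehicle value, so the groups overlapped. The mean of 11.77 ± 1.26 (n = 3) was 1.40 above ob/ob vehicle (SE 0.56, 95% interval 0.16 to 2.63, adjusted p = 0.765). Without extract 3 the difference was 0.67 (adjusted p = 0.968). Against wild type the extract group differed by −0.27 (95% interval −1.50 to 0.97, adjusted p = 0.871). That value was −0.99 without extract 3, and it turned to 0.145 without extract 1 and to 0.045 without extract 2. The comparisons of ob/ob vehicle with wild type and of extract with ob/ob vehicle share the ob/ob vehicle arrays, so their opposite signs are not independent of each other.

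Lgr5 encodes a receptor for R-spondins that strengthens the Wnt signal. It stood at 5.57, 5.60 and 6.65 log2 in wild type, 5.76, 6.12 and 5.93 in ob/ob vehicle, and 5.79, 5.32 and 5.60 with extract. The groups overlapped in every comparison, and the highest value was that of wild-type vehicle 3. The values were above the olfactory limit on 6 of 9 arrays, by small margins. The difference between ob/ob vehicle and wild type was −0.00 log2 (95% interval −0.71 to 0.70, adjusted p = 0.997), and that between extract and ob/ob vehicle was −0.37 (−1.07 to 0.34, adjusted p = 0.865).

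Axin2, Znrf3 and Nkd1 encode feedback inhibitors of the pathway. Axin2 is a scaffold of the complex that destroys beta-catenin, Znrf3 is a ubiquitin ligase that removes Wnt receptors from the cell surface, and Nkd1 binds Dishevelled. Axin2 was under the olfactory limit on all arrays but ob/ob vehicle 1. It stood at 4.44, 4.68 and 4.94 in wild type, 5.43, 5.30 and 4.25 in ob/ob vehicle, and 4.90, 5.41 and 4.62 with extract. Its level was thus not shown to be above background, and its differences (0.31 for ob/ob vehicle against wild type, 95% interval −0.47 to 1.08, and −0.02 for extract against ob/ob vehicle, −0.79 to 0.76) cannot be read as changes in the transcript. Of 19566 genes ranked, those whose values ran most like Axin2 over the 9 arrays were Dyrk1b, Crat and Ptprs (Pearson r 0.961, 0.927 and 0.920). This is a description over arrays that share groups and differ in quality. It picks the highest of many correlations with a profile mostly under the olfactory limit.

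Znrf3 was above the limit on 8 of 9 arrays. It stood at 7.83, 7.66 and 7.04 in wild type, 7.35, 7.51 and 5.89 in ob/ob vehicle, and 6.60, 7.19 and 6.90 with extract. The lowest value was that of ob/ob vehicle 3, where it was also under the limit, and every group overlapped with the others. The difference between ob/ob vehicle and wild type was −0.59 (SE 0.42, 95% interval −1.52 to 0.34, adjusted p = 0.527). Without ob/ob vehicle 3 it was −0.08 (adjusted p = 0.900). With each array's interquartile range as a covariate Znrf3 was called lower in ob/ob vehicle (−1.44, adjusted p = 0.0225) and in extract (−1.31, adjusted p = 0.0406) than in wild type. It was the only call among the 6 genes under any alternative run. The interquartile range ran from 3.01 to 3.47 in wild type, 3.26 to 3.85 in ob/ob vehicle and 3.48 to 3.68 with extract. It thus partly follows the groups, so group differences from any fit that holds it, here and below, are uncertain. Extract and ob/ob vehicle differed by −0.02 (−0.95 to 0.91).

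Nkd1 stood at 6.22, 5.82 and 6.33 in wild type, 6.38, 6.19 and 5.29 in ob/ob vehicle, and 6.72, 6.55 and 6.30 with extract. Here too ob/ob vehicle 3 had the lowest value, 5.29, under its olfactory limit of 6.44. Wild-type vehicle 3 was also under its limit (6.33 against 6.62), and wild-type vehicle 2 was barely above its own (5.82 against 5.74). The sizes of the differences of Nkd1 are thus uncertain. Extract values were higher by 0.57 on average than ob/ob vehicle, with overlapping groups (SE 0.31, 95% interval −0.13 to 1.27, adjusted p = 0.808). Without ob/ob vehicle 3 the difference between extract and ob/ob vehicle was 0.24 (adjusted p = 0.832). The difference between ob/ob vehicle and wild type was −0.17 (−0.87 to 0.53, adjusted p = 0.840).

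Tbx3 encodes a T-box transcription factor that is a beta-catenin target in liver. It stood at 6.90, 6.93 and 5.75 in wild type, 7.73, 7.49 and 5.98 in ob/ob vehicle, and 6.04, 7.00 and 6.50 with extract. In both vehicle groups the lowest value was that of the array that stood apart, where it was under the olfactory limit. The difference was 0.54 between ob/ob vehicle and wild type (95% interval −0.55 to 1.63, adjusted p = 0.641) and −0.55 between extract and ob/ob vehicle (−1.65 to 0.54, adjusted p = 0.866). Without ob/ob vehicle 3 these became 1.08 and −1.10 (adjusted p = 0.138 and 0.333). The sign between the vehicle groups turned when the fit held the interquartile range (−0.47, adjusted p = 0.487).

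**Figure D2:**
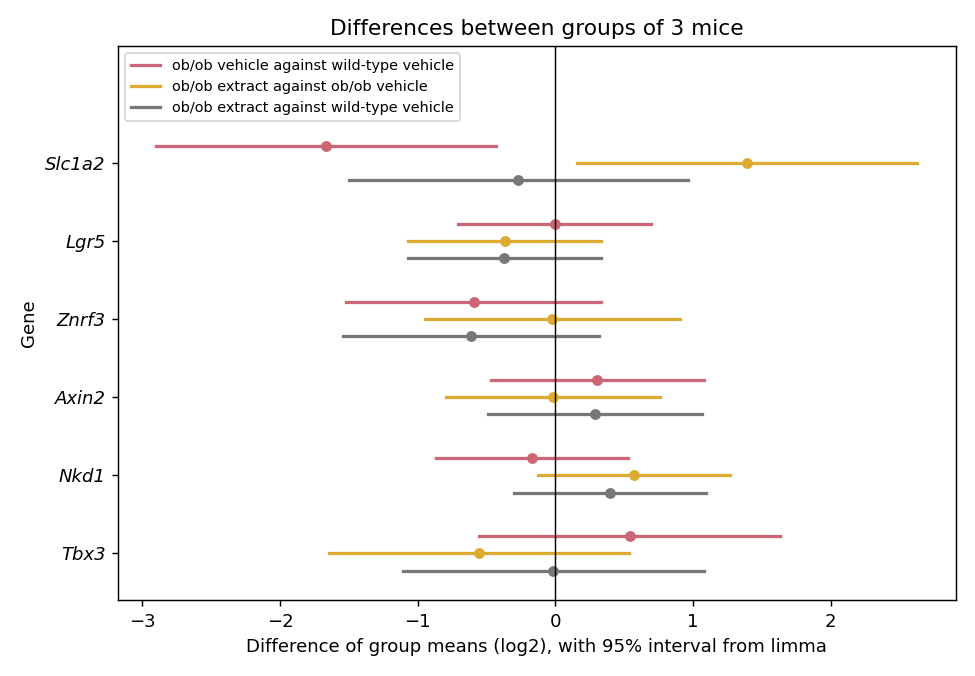
Difference of group means in log2 (horizontal axis) for each measured gene (vertical axis) in the 3 comparisons, as points with 95% intervals from limma, not adjusted for the number of genes. Of the 18 intervals, 2 leave out 0, both of Slc1a2: ob/ob vehicle against wild type (−2.90 to −0.43) and extract against ob/ob vehicle (0.16 to 2.63).

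The intervals show what these arrays could tell. For Lgr5 and Nkd1 every interval lay within 1.27 log2 of 0, and for Znrf3 and Tbx3 within 1.65. True differences of up to these sizes remain possible with 3 mice per group. Lgr5, Nkd1, Znrf3 and Tbx3 were each under the olfactory limit on 1 or more arrays. Their intervals therefore do not exclude larger differences in the transcript. On simulated data the fit recovered 7.46% of clusters changed by 1 log2 and 67.2% of those changed by 2 between ob/ob vehicle and wild type.

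Ob/ob vehicle 3 was the lowest of all 9 arrays for 3 of the 6 genes (Axin2, Znrf3 and Nkd1). The means of 9 hepatocyte markers (17.04 log2, against 17.27 to 18.03 on the other arrays) and of 13 sinusoidal endothelial markers (7.26, against 7.30 to 8.15) were also lowest there. Those of the Kupffer cell, stellate cell, cholangiocyte and central vein endothelial markers were lowest on other arrays. Tcf7l2, the TCF factor that carries the Wnt response in liver, was at 6.62 on that array, against 11.08 and 11.56 on the others of its group and 9.29 to 10.45 in the other groups. The part of these array-wide differences in the values of the 6 genes was not tested.

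The ligands and receptors upstream were compared in the same fit. Wnt2 and Wnt9b, ligands of the central vein endothelium, were at or under the olfactory limit (above it on 0 and 1 of 9 arrays), so no change in them could be read. Rspo3, the central vein R-spondin, was above it on 9 of 9 arrays. It stood at 7.46, 6.50 and 6.71 in wild type, 7.24, 7.28 and 7.10 in ob/ob vehicle, and 7.16, 7.58 and 8.43 with extract, a difference of 0.32 between the vehicle groups and 0.52 with extract (adjusted p = 0.717 and 0.845). The first became 0.60 and 0.12 without wild-type vehicle 1 and 2, and the second 0.16 without extract 3 and 0.80 without extract 1. As for Slc1a2, extract 3 had the highest value. Of 25 ligands and enhancers of the signal, limma called 0 between the vehicle groups and 0 with extract against ob/ob vehicle. By the looser criterion 1 was counted in each, against 17% and 6.45% of all clusters. Against wild type, Wnt5b was higher with extract (1.64, adjusted p = 0.0409), but it was above the limit only on extract 2 and 3, and the call was lost on leaving out either of these or extract 1, wild-type vehicle 2 or 3 or ob/ob vehicle 2 (adjusted p from 0.0696 to 0.190) and after quantile normalization (0.0585).

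Of 17 receptors and co-receptors, limma called 0 in any of the 3 comparisons. Between the vehicle groups 1 met the criterion, against 17% of all clusters. This gene was Fzd4, a Frizzled receptor, at 1.64 (adjusted p = 0.105). It was called there with array weights (0.0044) and without both arrays that stood apart (0.00667), but not when the fit held the interquartile range (0.298). Lgr4, the R-spondin receptor of hepatocytes at large, was well measured and differed by −0.62 (adjusted p = 0.315) in the same comparison. Between extract and wild type 1 of the 17 was higher and 3 were lower by the looser criterion, against 8.21% and 5.82% of all clusters. Of 16 measured intracellular components limma called 0 in any comparison. Between the vehicle groups 1 met the criterion, against 17% of all clusters. This gene was Gsk3b, a kinase of the destruction complex, at 1.03 (adjusted p = 0.129). It was called there with array weights (0.0175) and without both arrays that stood apart (0.0254), but not when the fit held the interquartile range (0.418). Tcf7l2 differed by −0.17 (adjusted p = 0.956), by 0.93 with array weights (0.381) and by −2.29 when the fit held the interquartile range (0.0628). Between extract and ob/ob vehicle it differed by 0.04 (adjusted p = 0.997). Without both arrays that stood apart it was called lower with extract than in ob/ob vehicle (−1.52, adjusted p = 0.0209). Without ob/ob vehicle 3 it was called higher in ob/ob vehicle than in wild type (1.39, adjusted p = 0.0366). Fzd4, Gsk3b and Sox9, a Wnt target described next, were also called higher without it (2.21, 1.35 and 1.01, adjusted p = 0.00568, 0.0185 and 0.0490), while 1679 clusters in all were called then. Lgr4 differed by −0.35 without it, and was called lower after quantile normalization (−1.06, adjusted p = 0.0441) and when the fit held the interquartile range (−1.10, adjusted p = 0.0473). Of 19 secreted and other inhibitors 1 was lower in ob/ob vehicle than in wild type, Wif1, which binds Wnt ligands (−1.33, adjusted p = 0.0303). It lay under the olfactory limit on 9 of 9 arrays, and the call was lost with the replicate block (0.0546). Leaving out ob/ob vehicle 1 or 2, wild-type vehicle 2 or 3 or extract 2 also ended it (adjusted p from 0.0593 to 0.120). Between the vehicle groups 10.3% of all clusters were higher by the looser criterion. Of 11 measured further Wnt targets limma called 0 in any comparison, and 3 were higher by that criterion between the vehicle groups. Among them Tnfrsf19 differed by 1.02 and Sox9 by 0.78 between the vehicle groups (adjusted p = 0.136 and 0.172; Tnfrsf19 was called with array weights, 0.0151, and without both arrays that stood apart, 0.0228), and the secreted factor Lect2 by 0.72 between extract and ob/ob vehicle (adjusted p = 0.767).

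**Figure D3:**
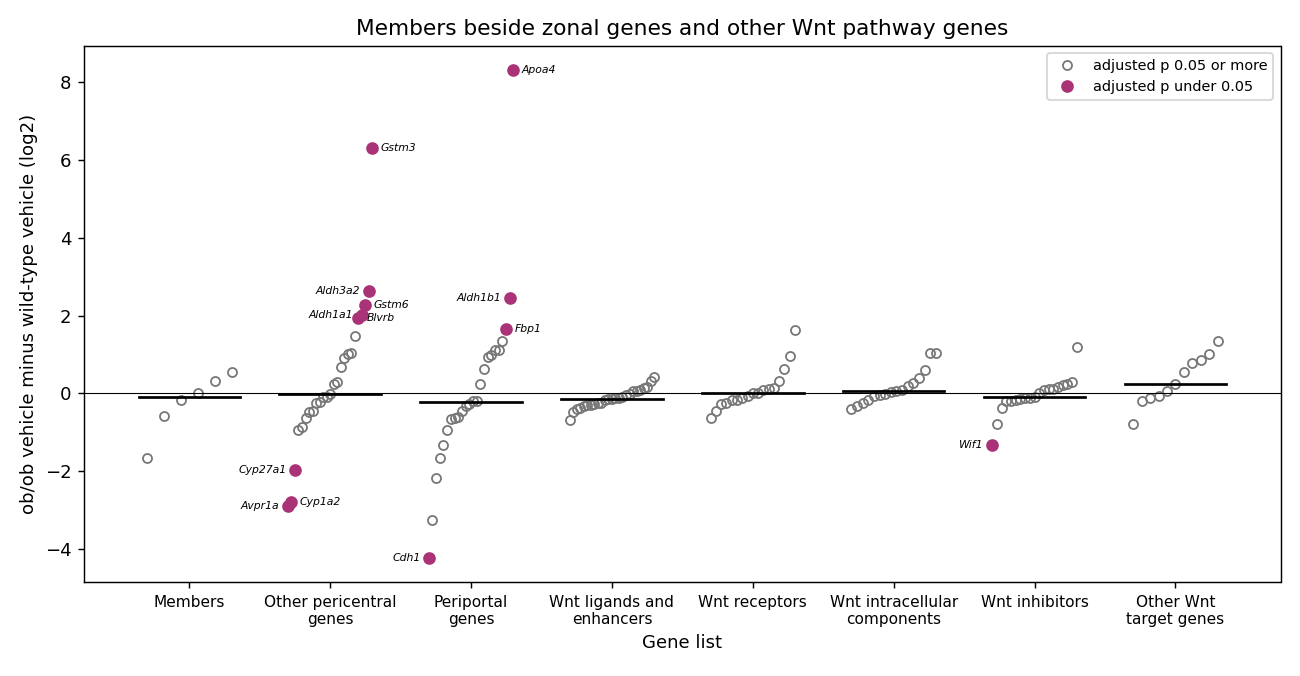
Difference between ob/ob vehicle and wild-type vehicle in log2 (vertical axis) for the 6 measured genes and for 7 context lists (horizontal axis). Each point is a gene, filled and named where the adjusted p was under 0.05, and black lines are medians. Among the zonal genes called ones lie on both sides of 0, while in the Wnt lists Wif1 alone was called.

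Other zonal genes of hepatocytes differed between the vehicle groups in both directions. Of 25 measured pericentral genes 5 rose and 3 fell in ob/ob vehicle against wild type, with a median of −0.03. Over all clusters 2.28% were called higher and 0.68% lower, with a median of −0.06. The zonal lists were chosen with earlier results of these data known. The rises were those of the glutathione transferases Gstm3 (6.30, SE 0.94, adjusted p = 0.00812) and Gstm6 (2.28), the aldehyde dehydrogenases Aldh1a1 (2.02, SE 0.24, adjusted p = 0.00306) and Aldh3a2 (2.64), and the biliverdin reductase Blvrb (1.94). The adjusted p was 0.0462 for Gstm6, 0.0280 for Aldh3a2 and 0.0297 for Blvrb. The falls were those of Cyp1a2, a P450 induced by beta-catenin and the aryl hydrocarbon receptor (16.45 ± 0.70 to 13.66 ± 0.91 log2, n = 3; −2.79, adjusted p = 0.0449), the sterol hydroxylase Cyp27a1 (−1.98, adjusted p = 0.0291) and the vasopressin receptor Avpr1a (−2.90, adjusted p = 0.00476). Avpr1a was above the olfactory limit only on wild-type vehicle 1, so the size of its difference is uncertain. The call of Cyp1a2 was lost with the replicate block (0.0650) and on leaving out any of 8 of the 9 arrays (adjusted p up to 0.169), all but extract 2. Those of Gstm6, Aldh3a2, Blvrb and Cyp27a1 were lost without each of ob/ob vehicle 1 and 2 and wild-type vehicle 2 and 3, among others, and that of Gstm3 without wild-type vehicle 2 (0.0532). Those of Aldh1a1 and Avpr1a held whichever array was left out. By the looser criterion 10 of the 25 pericentral genes were higher in ob/ob vehicle than in wild type and 3 lower. Over all clusters the shares were 10.3% and 6.72%.

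Cyp2e1, the most widely used pericentral P450 marker, lay between 19.17 and 19.85 on all arrays, close to the top of the scale (19.93), so a change in it could hardly be read. Oat, which converts ornithine to glutamate and sits in the same rim as Glul, differed by 1.46 between the vehicle groups (14.99 ± 0.48 against 16.45 ± 0.42, adjusted p = 0.187) without overlap. Over all clusters 19.5% had no overlap there. The sign of Oat was thus opposite to that of Slc1a2. With extract limma called 0 of 25 pericentral genes against ob/ob vehicle, and 1 met the criterion, the nuclear receptor Nr1i3 (1.49, adjusted p = 0.741; 0.87 without ob/ob vehicle 3). Over all clusters 6.45% met it. Against wild type limma called 4 of the 25 higher and 1 lower with extract, against 0.977% and 0.315%. By the looser criterion 10 were higher and 3 lower there, against 8.21% and 5.82%. The median was 0.56, beside −0.05 over all clusters.

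At the other end of the lobule, 3 of 24 measured periportal genes rose in ob/ob vehicle and 1 fell, against 2.28% and 0.68% of all clusters. By the looser criterion 7 were higher and 7 lower, against 10.3% and 6.72%. Cdh1, E-cadherin, stood at 9.73, 9.15 and 9.74 in wild type against 5.08, 5.58 and 5.29 in ob/ob vehicle (−4.22, adjusted p = 2.39e-05), the latter within the olfactory range on ob/ob vehicle 1 and 3. The apolipoprotein Apoa4 (8.30, adjusted p = 1.31e-04), the aldehyde dehydrogenase Aldh1b1 (2.46, adjusted p = 0.00724) and the gluconeogenic enzyme Fbp1 (1.66, adjusted p = 0.0483) were higher. The call of Fbp1 was lost with the replicate block (0.0749) and without any of 7 arrays, all but wild-type vehicle 1 and ob/ob vehicle 3 (adjusted p up to 0.167). Hal, which degrades histidine, differed by −0.66 (adjusted p = 0.432), by −0.23 without ob/ob vehicle 3, and was called lower when the fit held the interquartile range (−1.35, adjusted p = 0.0433).

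Among 21 measured genes of ammonia, glutamate and glutamine handling, 1 rose between ob/ob vehicle and wild type. This was the alanine aminotransferase Gpt2, which makes glutamate and pyruvate from alanine (2.71, adjusted p = 0.0122). Leaving out ob/ob vehicle 1 ended the call (0.0516), as did leaving out wild-type vehicle 2 (0.0544). With extract limma called 0 of 21 against ob/ob vehicle. By the looser criterion 3 were higher, against 3.56% of all clusters. Slc1a3, a further glutamate transporter, was at 5.02, 5.82 and 4.45 in wild type, 3.79, 3.90 and 3.69 in ob/ob vehicle and 5.53, 4.89 and 4.43 with extract. All ob/ob vehicle values lay under those of both other groups. Over all clusters 19.5% had no overlap between the vehicle groups and 13.6% between extract and ob/ob vehicle, counted over both directions. The extract difference was 1.16 (adjusted p = 0.741), and only 2 of the 9 Slc1a3 values were above the olfactory limit.

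The tissue label was checked on the same arrays. All 9 measured hepatocyte markers were above the olfactory limit on every array, while of 8 measured cholangiocyte markers 1 to 3 were, and of 8 central vein endothelial markers 2 to 4. The mean of 11 Kupffer cell markers ran from 6.33 to 6.97 log2 in wild type, 6.73 to 6.93 in ob/ob vehicle and 5.77 to 6.67 with extract. That of 12 stellate cell markers ran from 6.54 to 6.97, 6.77 to 7.30 and 6.82 to 7.08. Between the vehicle groups 1 Kupffer marker, Cd163, was lower (−1.53, adjusted p = 0.0417) and 1 stellate marker, Rgs5, higher (1.93, adjusted p = 0.0427; lost with the replicate block, 0.0582). Each call was lost on leaving out any of 7 arrays, the exceptions being ob/ob vehicle 2 and 3 for Cd163 and ob/ob vehicle 3 and extract 1 for Rgs5. By the looser criterion 3 of 9 hepatocyte markers were lower in ob/ob vehicle than in wild type (7 of 9 below 0, median −0.42), while limma called 0. Over all clusters 6.72% were lower by it, with a median of −0.06. With extract against ob/ob vehicle 4 of 11 Kupffer markers were lower and 1 higher by that criterion (9 of 11 below 0, median −0.67), limma calling 0. Over all clusters 2.9% were lower and 3.56% higher there, with a median of −0.01. Against wild type 11 of 11 Kupffer markers were below 0 with extract (median −0.38), of which 1 met the criterion and limma called 0. Over all clusters 5.82% were lower by that criterion in this comparison, with a median of −0.05. Of 13 sinusoidal endothelial markers 12 were below 0 with extract against ob/ob vehicle (median −0.25), of which 1 met the criterion and limma called 0. The part of cell type composition in the values of the 6 genes was not tested.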

How the data were processed

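Total RNA of 9 whole livers was hybridised to Clariom S mouse arrays, 1 per mouse. The values are log2 signals that the authors normalized by SST-RMA, per the design text, in Transcriptome Analysis Console version 4, per the submitters' processing notes. SST-RMA transforms the signal before the RMA steps and widens its range, so log2 differences can be larger than with RMA alone. The array's genome build is not given in the sources used here. Of 22206 clusters 19572 had 1 gene symbol, 0 several and 2634 none in the platform annotation. All value columns were used.

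The log2 values as deposited were fitted with limma 3.58.1 in R 4.3.3, with 1 mean per group over 9 arrays and Benjamini-Hochberg adjustment over all clusters. A gene is called at an adjusted p under 0.05. The limited number of arrays sets the precision. Tested on simulated data for ob/ob vehicle against wild type, the fit called 93.9% of the clusters given a change of 4 log2. The labels do not name cultures or litters, so p-values measure the spread between these samples.

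The genes and lists were chosen with earlier results of these data known. Named are the listed genes, a set of zonal and Wnt genes, up to 6 called genes of each context list (otherwise up to 3 with the smallest p), and the 3 genes most like Axin2. Glul likeness was not analysed here, nor were Ctnnb1, Gls2 and Sds.

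Replicate numbers are shared across groups. The deviations of same-numbered arrays correlated at 0.256, 0.262 and 0.450 between the vehicle groups. Between extract and ob/ob vehicle they correlated at −0.130, 0.016 and −0.106, and between extract and wild type at −0.208, −0.041 and −0.143. From the first values, and not from the labels, the numbers were treated as possible pairs in an alternative fit, the replicate block. Those 3 values are not independent, because both arrays that stood apart carry number 3 and deviations are taken from group means. The block also covered the extract arrays, although their deviations correlated at 0.016 or lower with those of same-numbered vehicle arrays. Whether the numbers mark pairs was not tested, so calls kept or lost with the block are uncertain. Alternatives covered normalization, centring, array weights, dim clusters, the groups in the fit, the replicate block, the interquartile range, eBayes settings and each array left out. The same alternatives for named context genes that were not called were added after seeing the data.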

Additional observations from a re-analysis of the deposited data

How the results depend on the processing

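With 3 mice per group, and with dim genes close to background on the arrays of narrow range, small differences in the 6 genes could not be resolved. The number of clusters called between ob/ob vehicle and wild type (658) became 2137 with array weights, 207 with only the 2 groups compared and 1745 without both arrays that stood apart, and ran from 147 (without wild-type vehicle 2) to 1679 (without ob/ob vehicle 3) as each array was left out. For extract against ob/ob vehicle (0) it became 106, 360 without both arrays and 1 when the fit held the interquartile range, and ran from 0 to 51 (without ob/ob vehicle 3). For extract against wild type (287) it became 796 with array weights and 595 without both arrays, and ran from 77 (without extract 2) to 598 (without ob/ob vehicle 3). The share of calls that were higher between the vehicle groups was 77.1%, but 53.1% after quantile normalization and 63.4% with the interquartile range. For extract against wild type it was 75.6%, 61.2% and 54.6%.

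Among the 6 genes, the count called was 0 under every alternative run (0 to 0 as each array was left out), except 1 (Znrf3) when the fit held the interquartile range, in both comparisons with wild type. With the replicate block 579 clusters were called between the vehicle groups, 0 between extract and ob/ob vehicle and 283 between extract and wild type, and no call among the 6 genes changed (Slc1a2 −1.66, adjusted p = 0.158). The block ended the calls of Cyp1a2, Fbp1, Wif1 and Rgs5 between the vehicle groups and of Wnt5b between extract and wild type (adjusted p = 0.0520). These losses rest on a pairing that was not tested and of which the extract arrays gave no sign.

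Signs turned as follows, and the cause was not tested. Between the vehicle groups Lgr5 became 0.12 with medians subtracted, 0.24 with array weights, 0.31 with the interquartile range, 0.36 without both arrays and −0.188 to 0.352 as arrays were left out (0.09 without ob/ob vehicle 1). Nkd1 became 0.15 with weights, 0.27 without both arrays and −0.383 to 0.162 (without ob/ob vehicle 3) as arrays were left out, and Tbx3 −0.47 with the interquartile range. Between extract and ob/ob vehicle Axin2 became 0.026 after quantile normalization, 0.002 with medians subtracted, 0.034 with the interquartile range and −0.388 to 0.202 as arrays were left out. Znrf3 became 0.10, 0.12 with the interquartile range and −0.533 to 0.277. Between extract and wild type Tbx3 became 0.13 with medians subtracted and −0.402 to 0.223 as arrays were left out, and Slc1a2 −0.99 (without extract 3) to 0.145 (without extract 1). Axin2 fell among the dimmest 50% of clusters and so has no value under that filter.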
